A study of Mus musculus with 22 samples.

Results

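The cell division cycle was represented by 40 genes: 19 genes of DNA replication and its preparation (S-phase members) and 21 genes of mitosis (mitotic members). They were found by name on the arrays, through the current symbol, an older symbol or a RefSeq accession of the probe. Earlier results of these data were known when the list was chosen. All 40 were present, on 61 probes, among 18627 genes and unnamed probes that could be tested, and each was read from its probe of highest mean intensity. Those 40 probes were well above background on all 22 arrays.

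The study compared forelimbs of embryos at day 13.5 of development, strain label 129, from 9 wild-type samples and 13 samples with a knockout of Chsy1 (written Chsy-1 in the labels). Chsy1 makes chondroitin sulfate, a sugar chain of the matrix around cells. Both groups shared strain, age, tissue and the reference RNA: each sample, labelled with Cy5, was hybridised on 1 array against a Cy3-labelled universal mouse reference. The kind of Chsy1 allele, and whether a sample was 1 embryo or several, are not given in the sources used here. The series states that the replicates are biological. All values are log2 ratios of forelimb to reference RNA, so the level of one gene cannot be set against that of another. Every array ran in the same dye orientation, so a dye bias of a probe stays in its ratio, though it is shared by both genotypes.

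Chsy1 itself was at 1.28 to 2.02 in the wild type (median 1.79) and fell by 6.11 in the knockout (95% interval -7.02 to -5.21, limma adjusted p = 1.27e-08). In 12 of the knockout arrays it lay between -5.12 and -4.05, while the array labelled knockout 1 had 0.15, below every wild-type array but far above the other knockouts. Another pair of arrays stood apart in the size of their log ratios: the slope of an array on the mean of the others was 0.69 for wild-type 1 and 0.87 for knockout 12. In the other 20 arrays it was 0.96 to 1.06. The forelimb gene Tbx5 was above background on every array, and so were the hindlimb genes Pitx1 and Tbx4. Mean log2 ratios in the wild type and the knockout were 2.20 and 2.41 for Tbx5, 5.64 and 5.45 for Pitx1 and 0.61 and 0.71 for Tbx4. Over all tested genes 4 were past an adjusted p of 0.05, all lower in the knockout.

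As background, a dividing cell copies its DNA in S phase and separates the copies in mitosis. E2F1 and its relatives switch on the replication genes when cyclin E with its kinase frees them from the retinoblastoma proteins. FOXM1 and the MuvB complexes then switch on the mitotic genes, many of which carry a CHR element and CCAAT boxes near their start. In the limb bud, dividing mesenchyme supplies the cells that condense into cartilage, and cells that leave the cycle lose both sets of transcripts. In whole tissue, fewer dividing cells and less transcript per cell cannot be told apart, and no cells were counted here.

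The promoters of the members were searched for these elements, and those with the most kinds of element and matches are printed to show what the members share beyond their function. RefSeq sequence of GRCm38.p6 was matched by symbol for 32 of the 40 members, 16 in each set. Those named only are Mcm4, Ccne2, Gins2, Ccna2, Aurkb, Kif20a, Tpx2 and Foxm1. The 250 bases before the gene's start were searched on both strands for an E2F site (TTTCCCGC, TTTGGCGC, TTTCGCGC or TTTGCCGC), the CHR element TTTGAA and the CCAAT box. An E2F site was found in 4 of the 16 S-phase promoters (Mcm5, Mcm6, Mcm7 and Cdc6) and in 1 of the 16 mitotic ones (Cdk1), against 1.91% of all 27025 promoters of this length. A CHR element lay in 6 of 16 mitotic promoters (Ccnb2, Cdk1, Cdc20, Top2a, Mki67 and Kif11) and in 2 of 16 S-phase promoters (Mcm2 and Fen1), against 16.3% of all. CCAAT boxes were in 15 of 16 mitotic and 8 of 16 S-phase promoters, against 34.5% of all. These are matches of letters and not measured binding.

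The 3 S-phase promoters shown, with the most kinds of element and then the most matches, are at chr1:128359706-128359955 on the minus strand for Mcm6, chr8:75109259-75109508 on the plus strand for Mcm5 and chr5:138171884-138172133 on the minus strand for Mcm7. Capitals mark E2F sites and CCAAT boxes, both read on either strand. In Mcm6 and Mcm5 a longer run of capitals joins a pair of overlapping E2F matches.
Mcm6: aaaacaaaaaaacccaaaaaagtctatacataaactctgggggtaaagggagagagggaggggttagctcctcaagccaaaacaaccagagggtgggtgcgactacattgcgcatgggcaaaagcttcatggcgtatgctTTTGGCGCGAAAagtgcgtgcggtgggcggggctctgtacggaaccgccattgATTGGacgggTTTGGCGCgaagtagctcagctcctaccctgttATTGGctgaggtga
Mcm5: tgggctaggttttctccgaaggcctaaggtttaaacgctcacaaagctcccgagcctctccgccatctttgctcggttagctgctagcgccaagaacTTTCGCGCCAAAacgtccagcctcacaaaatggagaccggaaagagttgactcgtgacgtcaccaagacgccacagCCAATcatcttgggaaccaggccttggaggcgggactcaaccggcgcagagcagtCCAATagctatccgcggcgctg
Mcm7: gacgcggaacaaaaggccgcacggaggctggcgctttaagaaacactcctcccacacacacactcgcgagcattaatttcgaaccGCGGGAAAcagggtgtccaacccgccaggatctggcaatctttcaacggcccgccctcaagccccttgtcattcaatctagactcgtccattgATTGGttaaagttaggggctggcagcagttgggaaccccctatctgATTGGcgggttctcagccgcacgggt

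The 3 mitotic promoters shown by the same order are at chr10:69352913-69353162 on the minus strand for Cdk1, chr11:99024190-99024439 on the minus strand for Top2a and chr7:135716380-135716629 on the minus strand for Mki67. Capitals mark CHR elements and CCAAT boxes, read on either strand, and an E2F site in Cdk1. Cdk1 holds 1 E2F site, 2 CHR elements and 3 CCAAT boxes. Top2a holds 2 CHR elements and 6 CCAAT boxes, and Mki67 holds 2 and 3.
Cdk1: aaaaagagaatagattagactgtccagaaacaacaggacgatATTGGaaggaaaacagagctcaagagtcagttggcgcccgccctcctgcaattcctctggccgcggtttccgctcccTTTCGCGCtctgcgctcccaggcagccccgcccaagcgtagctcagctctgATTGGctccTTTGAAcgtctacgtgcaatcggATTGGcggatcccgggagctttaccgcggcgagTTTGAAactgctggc
Top2a: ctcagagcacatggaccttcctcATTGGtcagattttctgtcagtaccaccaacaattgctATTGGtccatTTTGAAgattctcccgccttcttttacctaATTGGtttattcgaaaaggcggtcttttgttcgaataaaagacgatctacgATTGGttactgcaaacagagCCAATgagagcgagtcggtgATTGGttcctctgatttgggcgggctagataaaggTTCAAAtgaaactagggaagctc
Mki67: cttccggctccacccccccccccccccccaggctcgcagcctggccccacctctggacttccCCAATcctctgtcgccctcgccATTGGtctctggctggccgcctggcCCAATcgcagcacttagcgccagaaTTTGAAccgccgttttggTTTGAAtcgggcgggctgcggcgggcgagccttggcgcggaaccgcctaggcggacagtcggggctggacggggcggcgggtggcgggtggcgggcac

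No member passed the threshold between genotypes. The adjusted p-values of limma, taken over all tested genes, lay between 0.909 and 1.00 for the 40 members. The share of all tested genes that passed was 0.0215%. Of the S-phase members 6 were lower and 13 higher in the knockout, with a median difference of 0.02 (log2). Of the mitotic members 10 were lower and 11 higher, with a median of 0.00. Over all tested genes the median difference was -0.01 and 53.4% were lower. Without wild-type 1 and knockout 12, 5 S-phase and 10 mitotic members were lower, and without wild-type 1 and knockout 1, 7 and 8; no member passed in either case. With the adjustment left aside, 1 of the 40 members had a p under 0.05 (Ccne1), where 5.33% of all tested genes did. In no member did the genotypes separate: the values of 9 wild-type and 13 knockout arrays overlapped for all 40. The share of all tested genes with such overlap was not counted, so this cannot be read as particular to the members.

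In the main setting, the intervals give the size of difference these arrays leave room for. All 40 of the 95% intervals lay within 1.5-fold in either direction, as did 96.6% of those of all genes. For 28 members, 14 in each set, the interval lay within 1.2-fold, against 60.0% of all genes. The widest bounds belonged to Ccne2 (up to 0.48) and E2f1 (down to -0.45), a cyclin E and a transcription factor of S-phase entry. Under the other settings given below, the fitted differences themselves reached 0.46 (Nek2) and -0.35 (Mki67). The bounds therefore belong to the main setting.

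**Figure D1:**
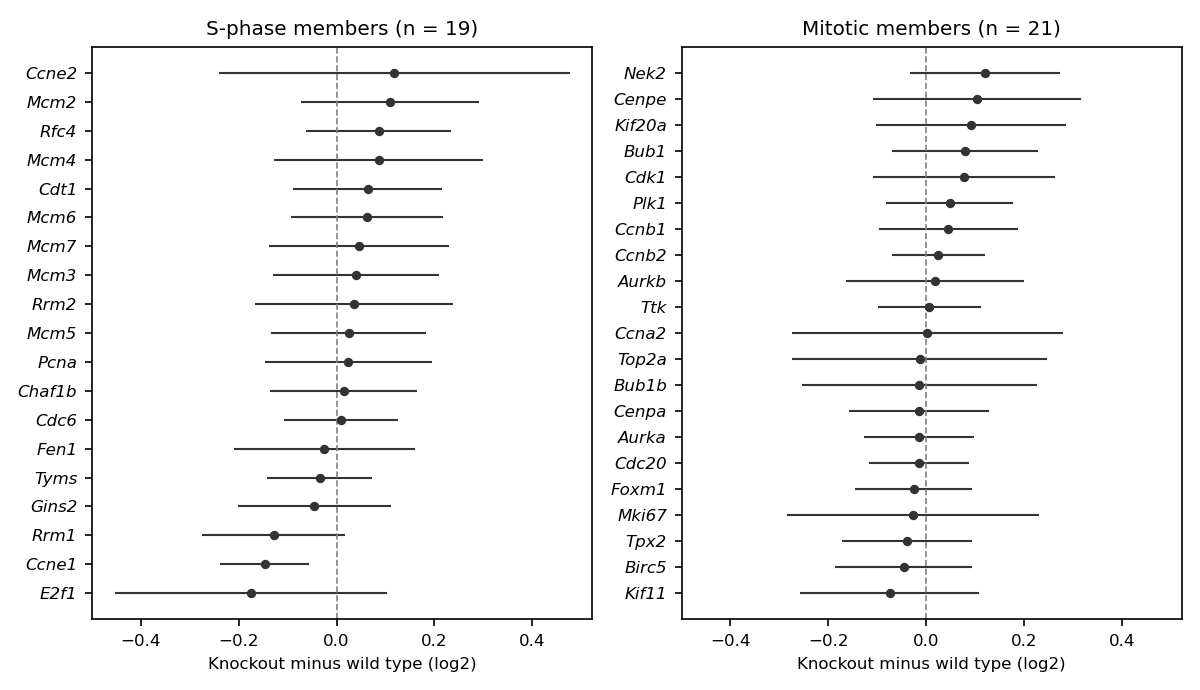
Difference of each member between genotypes, knockout minus wild type, in log2 units (x axis), for the 19 S-phase members (left) and the 21 mitotic members (right), ordered by size. Points are the fitted differences from 9 wild-type and 13 knockout arrays and bars the 95% intervals; the interval leaves out 0 for 1 member, Ccne1.

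Cyclins E1 and E2 and E2F1 act at the entry into S phase. Ccne1 lay between 1.81 and 2.03 in the wild type (median 1.83) and between 1.63 and 1.90 in the knockout (median 1.72). The groups overlapped, but 11 of the 13 knockout arrays were below the wild-type median. Ccne1 had the smallest p of all members, with means of 1.88 ± 0.08 (SD, n = 9) and 1.73 ± 0.08 (SD, n = 13). The difference was -0.15 ± 0.04 (SE; 95% interval -0.24 to -0.06; limma adjusted p = 0.909), so it did not pass. It is 1.11-fold in size. Within the 6 slides, each of which held both genotypes, the difference ran from -0.24 to -0.06, lower in the knockout on all 6. At the 1 slide position that held both genotypes, with 3 arrays each, it was -0.09. The second Ccne1 probe, placed at the same bases, gave -0.12 and followed the first over the arrays (Pearson r = 0.75, n = 22).

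E2f1 ran from 0.48 to 1.32 in the wild type (median 0.87) and from 0.13 to 1.12 in the knockout (median 0.83). The knockout values fell into a broad upper range and 4 low arrays: knockout 8 had 0.13, knockout 9 had 0.35, knockout 10 had 0.40 and knockout 11 had 0.16. These 4 arrays lay on 4 slides, at positions 3 and 4, and the remaining 9 knockout arrays lay within the wild-type range. Low values were not confined to the knockout: wild-type 5 had 0.48 and wild-type 8 had 0.51, the next being wild-type 1 at 0.81. The means were 0.91 ± 0.29 (SD, n = 9) and 0.74 ± 0.35 (SD, n = 13), a difference of -0.17 (95% interval -0.45 to 0.10; limma adjusted p = 0.931). A second E2f1 probe, printed on 10 spots of each array, followed the first (r = 0.96, n = 22) but gave a smaller difference, of -0.08. Its spots had a median SD of 0.04 within an array, which covers printing and scanning only, since the spots share labelling and hybridisation. Ccne2 was the most variable S-phase member, from -0.50 to 0.62 in the wild type and from -0.83 to 0.82 in the knockout, with a difference of 0.12 (95% interval -0.24 to 0.48; limma adjusted p = 0.971).

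Origins of replication are licensed by CDC6, CDT1 and the MCM2 to MCM7 helicase ring. Mcm2 lay between -0.02 and 0.74 in the wild type (median 0.26) and between 0.17 and 0.81 in the knockout (median 0.38). The groups overlapped over most of that range, with 11 of 13 knockout arrays above the wild-type median. Its means were 0.32 ± 0.23 (SD, n = 9) and 0.43 ± 0.19 (SD, n = 13), a difference of 0.11 (95% interval -0.07 to 0.29; limma adjusted p = 0.931). Mcm5 ran from 0.05 to 0.72 in the wild type (median 0.46) and from 0.19 to 0.72 in the knockout (median 0.42), with wild-type 8 and knockout 1 the highest. Its difference was 0.02 (95% interval -0.13 to 0.18; limma adjusted p = 0.985). The other helicase genes differed by 0.04 (Mcm3), 0.09 (Mcm4), 0.06 (Mcm6) and 0.05 (Mcm7), none past the threshold. In the arrays of slide position 2 alone, 5 of the 6 helicase genes were lower in the knockout, down to -0.18 for Mcm4, so their direction was not stable. Cdc6, the loader of the helicase, lay between -0.34 and 0.06 in the wild type (median -0.21) and between -0.36 and 0.04 in the knockout (median -0.15). The genotypes covered nearly the same range for Cdc6, with a difference of 0.01 (95% interval -0.11 to 0.13; limma adjusted p = 0.992). Cdt1, which works beside Cdc6, differed by 0.06.

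At the fork, PCNA clamps the polymerase to DNA, and its probe was printed on 10 spots of each array. Pcna lay between -0.29 and 0.42 in the wild type (median 0.06) and between -0.28 and 0.33 in the knockout (median 0.11). The lowest arrays were wild-type 3 and knockout 5 and the highest wild-type 8 and knockout 1, so both genotypes spanned the range. The means were 0.03 ± 0.21 (SD, n = 9) and 0.05 ± 0.18 (SD, n = 13), a difference of 0.02 (95% interval -0.15 to 0.20; limma adjusted p = 0.987). Within an array its 10 spots had a median SD of 0.03, which likewise covers printing and scanning only. Rfc4, part of the clamp loader, differed by 0.09. Fen1, which trims Okazaki fragments, differed by -0.02, Gins2 of the active helicase by -0.05, and Chaf1b, which places histones on new DNA, by 0.01.

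Nucleotides for replication come from ribonucleotide reductase (Rrm1 and Rrm2) and thymidylate synthase (Tyms). Rrm1 lay between -0.14 and 0.45 in the wild type (median 0.16) and between -0.15 and 0.23 in the knockout (median -0.06). Here 12 of 13 knockout arrays were below the wild-type median, though the groups overlapped. The difference was -0.13 (95% interval -0.27 to 0.02; limma adjusted p = 0.918), and it was lower in the knockout on 4 of the 6 slides. At slide position 2 the direction turned, to 0.03. Rrm2, the subunit whose level follows S phase, ran from -0.47 to 0.17 in the wild type (median -0.05) and from -0.40 to 0.39 in the knockout (median -0.10). It differed by 0.04 (95% interval -0.17 to 0.24; limma adjusted p = 0.982), so the 2 subunits had differences of opposite sign, neither past the threshold. Tyms differed by -0.03 and was the tightest wild-type member, with an SD of 0.07.

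**Figure D2:**
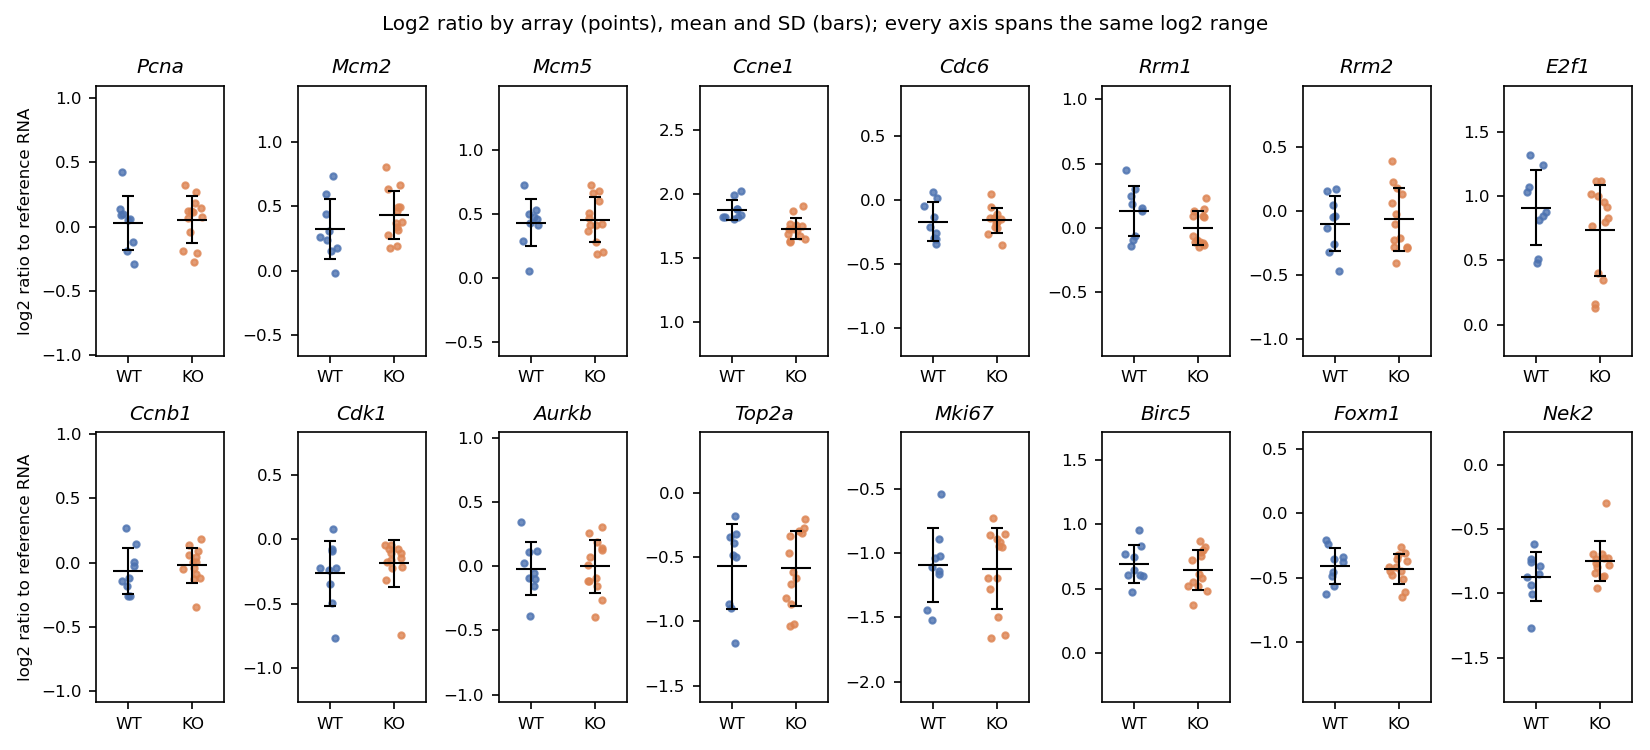
Log2 ratio of forelimb to reference RNA (y axis) in each array for 16 members, with wild type (WT, 9 arrays) and knockout (KO, 13 arrays) side by side. Points are arrays, and bars show the mean and SD; each panel spans the same log2 range around its own level, and the groups overlap in all of them.

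Entry into mitosis is driven by CDK1 with its B cyclins, behind FOXM1. Ccnb1 lay between -0.26 and 0.27 in the wild type (median -0.12) and between -0.35 and 0.18 in the knockout (median 0.00). The lowest Ccnb1 value was a knockout and the highest a wild type, and 11 of 13 knockout arrays were above the wild-type median. Its difference was 0.04 (95% interval -0.10 to 0.19; limma adjusted p = 0.972). The other Ccnb1 probes, also above background on all 22 arrays, gave larger differences, of 0.12 and 0.10. Cdk1 ran from -0.77 to 0.08 in the wild type (median -0.23) and from -0.74 to -0.04 in the knockout (median -0.14). Wild-type 3 and knockout 5 were its lowest arrays, and the difference was 0.08 (95% interval -0.11 to 0.26; limma adjusted p = 0.954). Foxm1, the transcription factor of the mitotic genes, lay between -0.63 and -0.21 in the wild type (median -0.38) and between -0.65 and -0.26 in the knockout (median -0.42). The genotypes overlapped over nearly the whole range of Foxm1, with a difference of -0.03 (95% interval -0.14 to 0.09; limma adjusted p = 0.979) and of -0.17 at slide position 2. Ccnb2 differed by 0.02 and Ccna2, the cyclin shared by S phase and mitosis, by 0.00.

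Mki67 encodes the nuclear antigen used to score dividing cells, and Top2a untangles sister DNA. Mki67 lay between -1.52 and -0.54 in the wild type (median -1.11) and between -1.66 and -0.72 in the knockout (median -0.96). All arrays of both genotypes were below the reference RNA, with means of -1.10 ± 0.29 (SD, n = 9) and -1.12 ± 0.31 (SD, n = 13). The difference was -0.03 (95% interval -0.29 to 0.23; limma adjusted p = 0.989), while the within-slide values ran from -0.62 to 0.45 and the value at slide position 2 was -0.35. The second Mki67 probe, also above background on all 22 arrays, gave -0.12 and followed the first (r = 0.87). Top2a ran from -1.17 to -0.18 in the wild type (median -0.48) and from -1.04 to -0.21 in the knockout (median -0.61). Its low arrays were wild-type 6 and knockout 6, and its difference was -0.01 (95% interval -0.27 to 0.25; limma adjusted p = 0.993).

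The chromosome passenger complex, checkpoint kinases, centromere proteins and spindle motors separate the chromosomes. Aurkb, its kinase, lay between -0.39 and 0.34 in the wild type (median -0.06) and between -0.40 and 0.30 in the knockout (median 0.01), a difference of 0.02 (95% interval -0.16 to 0.20; limma adjusted p = 0.989). Birc5, the survivin of the same complex, ran from 0.47 to 0.96 (median 0.64) and from 0.37 to 0.87 (median 0.61), a difference of -0.05 (95% interval -0.19 to 0.09; limma adjusted p = 0.970). For both genes of the complex the ranges of the genotypes nearly coincided. Nek2, a centrosome kinase, had the smallest p of the mitotic members: it lay between -1.27 and -0.61 in the wild type (median -0.85) and between -0.96 and -0.30 in the knockout (median -0.77). Its difference of 0.12 (95% interval -0.03 to 0.27; limma adjusted p = 0.924) did not pass, with 10 of 13 knockout arrays above the wild-type median. Bub1, a spindle checkpoint kinase, ran from -0.81 to -0.33 (median -0.50) in the wild type and from -0.78 to -0.13 (median -0.49) in the knockout, a difference of 0.08 (limma adjusted p = 0.938). The medians of Bub1 were thus nearly equal. Cenpe, a kinetochore motor, ran from -0.66 to -0.01 (median -0.29) and from -0.65 to 0.25 (median -0.21), a difference of 0.10 (limma adjusted p = 0.938). Kif20a, a motor of cell division, ran from 0.01 to 0.71 (median 0.49) and from 0.11 to 0.87 (median 0.47), a difference of 0.09 (limma adjusted p = 0.942). In Cenpe and Kif20a the highest value of all was a knockout array, knockout 11, and the groups overlapped. The direction of both turned at slide position 2, where Cenpe differed by -0.15 and Kif20a by -0.13. The other 2 Cenpe probes, also above background on all arrays, gave -0.11 and 0.05.

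The other 10 mitotic members had differences from -0.07 (Kif11, a spindle motor) to 0.05 (Plk1, a mitotic kinase), 6 lower and 4 higher. They are Ccna2, Ccnb2, Cdc20, Plk1, Bub1b, Aurka, Cenpa, Kif11, Tpx2 and Ttk, with limma adjusted p-values of 0.954 to 1.00. The other 11 S-phase members, Mcm3, Mcm4, Mcm6, Mcm7, Ccne2, Cdt1, Gins2, Tyms, Rfc4, Fen1 and Chaf1b, had differences from -0.05 (Gins2) to 0.12 (Ccne2), 3 lower and 8 higher.

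To read the sets array by array, each gene was centred on its mean over the 22 arrays and the members of a set were averaged. The S-phase mean ran from -0.18 (wild-type 3) to 0.14 (wild-type 8) in the wild type, with a median of 0.00 and an SD of 0.10. In the knockout it ran from -0.12 (knockout 6) to 0.13 (knockout 1), with a median of 0.02 and an SD of 0.08. The knockout range thus lay inside the wild-type range. The mitotic mean ran from -0.15 (wild-type 4) to 0.12 (wild-type 8) in the wild type and from -0.15 (knockout 6) to 0.08 (knockout 1) in the knockout, with medians of -0.03 and 0.01. The means of the 2 genotypes differed by 0.01 for the S-phase set and 0.02 for the mitotic set, under the SD of either genotype. On wild-type 8, 33 of the 40 members were above their own mean, and on knockout 6 only 8 were.

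The 2 sets moved together from array to array. Over the 22 arrays the S-phase and mitotic means had a Pearson r of 0.87 and a Spearman rho of 0.82, and r was 0.82 without the 2 arrays farthest from the S-phase median. This is a description: the points share the reference RNA, the array and its normalisation. Further genes of the same functions followed them: the mean of 35 other S-phase genes had r = 0.85 with the S-phase members, and that of 40 other mitotic genes had r = 0.95 with the mitotic members. Wild-type 1 and knockout 12, the arrays that stood apart in the size of their ratios, had mitotic means of 0.07 and 0.06 beside S-phase means of 0.00 and -0.01.

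**Figure D3:**
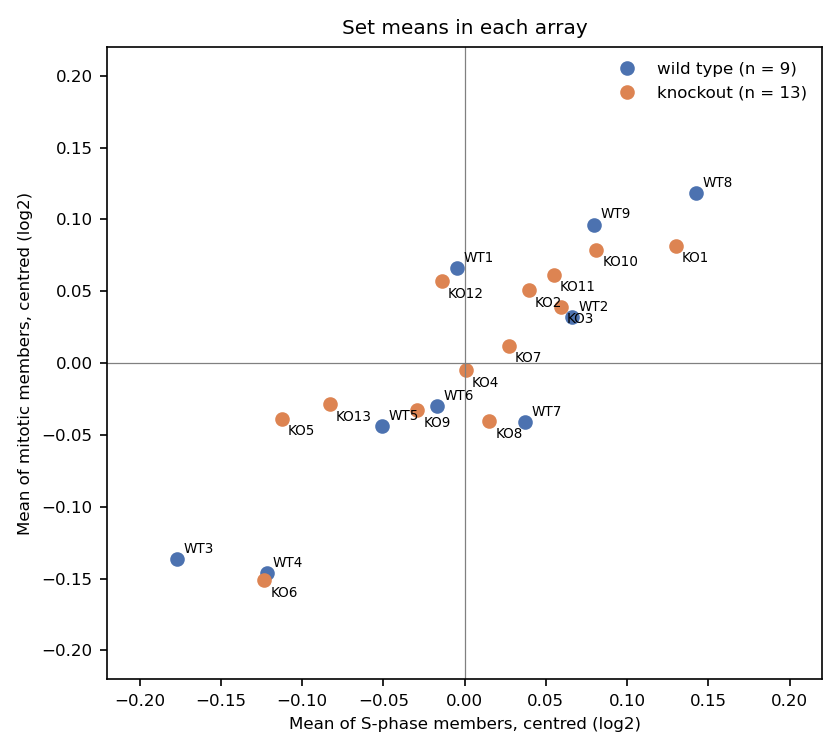
Mean of the 19 S-phase members (x axis) and of the 21 mitotic members (y axis) in each array, in log2 units after centring each gene over the 22 arrays; WT and KO carry the replicate number of the labels. Arrays of both genotypes lie along the same diagonal, from wild-type 3, wild-type 4 and knockout 6 at the low end to wild-type 8 and knockout 1 at the high end.

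The set means were uneven over the positions of the slides. At the second position, which held 3 arrays of each genotype, all 6 S-phase means were above 0, at 0.04, 0.08 and 0.14 in the wild type and at 0.04, 0.06 and 0.13 in the knockout. At the first position, all wild type, 1 of 6 was above 0, and at the third, all knockout, 3 of 6. Within the second position the genotypes differed by -0.01 in the S-phase mean and by 0.00 in the mitotic mean. Over the 6 slides the difference of the S-phase mean ran from -0.13 to 0.15 and that of the mitotic mean from -0.06 to 0.17, lower in the knockout on 2 slides each. At the other positions genotype and position cannot be told apart.

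Markers of other cells moved with the set means as well. The mean of the skeletal muscle markers, 13 of 14 of them tested and above background on all arrays, ran from -0.57 to 0.41 in the wild type and from -0.53 to 0.30 in the knockout, and had r = -0.67 with the mean of the 40 members. The 10 macrophage markers ran from -0.30 to 0.26 and from -0.21 to 0.35 (r = -0.74), and the 10 surface ectoderm markers from -0.29 to 0.33 and from -0.36 to 0.13 (r = -0.64). Arrays with higher cycle genes had lower levels of these 3 lists, unevenly by genotype. In the wild type and the knockout r was -0.63 and -0.74 for muscle, -0.82 and -0.67 for macrophages and -0.81 and -0.42 for ectoderm. Without the 2 knockout arrays farthest in the member mean the knockout values were -0.61, -0.43 and -0.16. The cartilage markers, 12 of 12 above background, ran from -1.05 to 0.58 and from -0.61 to 0.31 (r = -0.36). Over the 22 arrays, weaker relations were seen for erythroid (r = -0.27), endothelial (-0.19), nerve (-0.19), forelimb (0.04) and hindlimb markers (0.05). Nerve was uneven by genotype too, at -0.08 in the wild type and -0.54 in the knockout, or -0.29 without the same 2 knockout arrays. All these relations come from the same 22 arrays and share the same normalisation. The part of these lists in the set means was not tested. Without wild-type 1 and knockout 12, which had the lowest values of muscle and cartilage markers, r with muscle was -0.80 (n = 20).

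The signal of the arrays was also set beside the members. The median Cy5 intensity of an array had r = 0.49 with the mean of the 40 members (rho = 0.27). Without the 2 arrays farthest in the member mean r was 0.37. Within the wild type r was 0.70 and within the knockout 0.19. Without the 2 farthest arrays of each genotype these were 0.12 and -0.08, so the wild-type value rested on 2 arrays. The slope of an array on the others had r = 0.03 over the 22 arrays and 0.47 over the 20 without wild-type 1 and knockout 12. Their part in the set means was not tested.

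**Figure D4:**
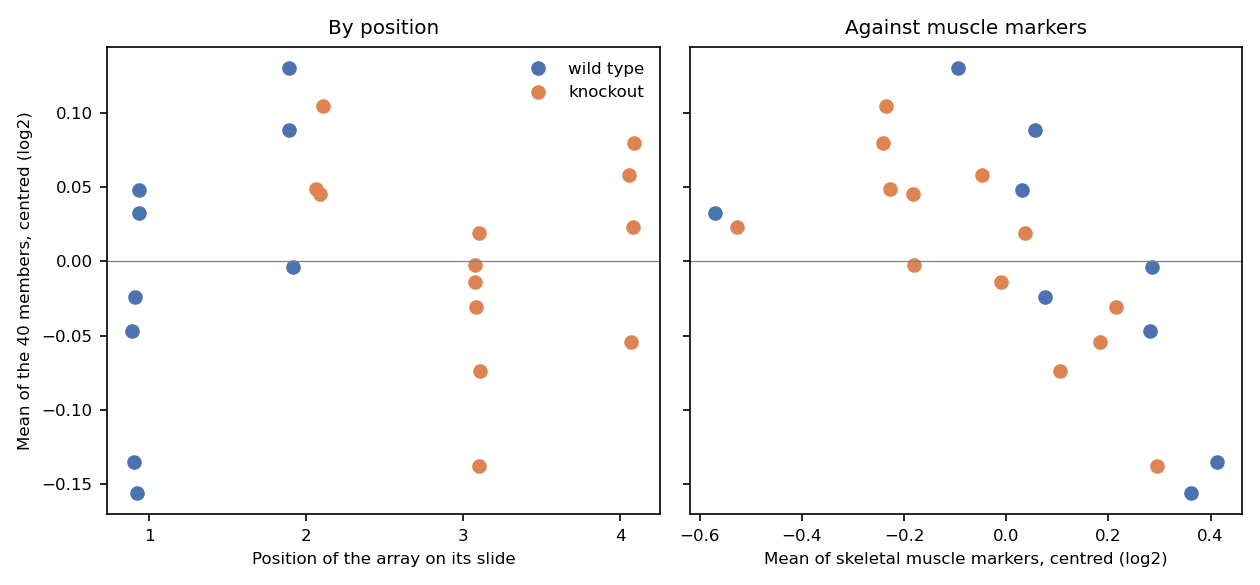
Mean of the 40 members in each array, centred, in log2 units (y axis), by the position of the array on its slide (left) and against the mean of the skeletal muscle markers (right). Each point is an array, 9 wild type and 13 knockout; position 2 holds 3 of each, and the arrays with the highest muscle means, up to 0.41, have the lowest member means.

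Members did not all follow their set. With the genotype means subtracted, the correlation of a member with the mean of the rest of its set had a median of 0.44 in the S-phase set, from -0.41 for Ccne1 to 0.76 for Mcm4. In the mitotic set it had a median of 0.39, from -0.25 for Ccna2 to 0.71 for Tpx2. Ccne1, E2f1 and Rrm2 among the S-phase genes and Ccna2 and Cenpa among the mitotic genes were below 0. Over the 780 pairs of members the median r was 0.18, from -0.78 to 0.94.

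Tighter groups crossed the border between the sets. The licensing genes Mcm3, Mcm4 and Cdt1 varied together over the arrays (r = 0.93 to 0.94), with Kif20a beside them (r = 0.91 with Mcm3). Mcm5, Fen1 and Top2a formed another group (r = 0.92 for Mcm5 with Fen1 and 0.90 with Top2a), and Top2a ran opposite to Cenpa (r = -0.78) and Birc5 (r = -0.73). E2f1 and Ccna2 followed each other (r = 0.83): on knockout 8, 9, 10 and 11, the low knockout arrays of E2f1, Ccna2 was at -0.19, -0.01, -0.06 and -0.09, against a knockout median of 0.38. On wild-type 5 and wild-type 8, the low wild-type arrays of E2f1, Ccna2 was at -0.02 and 0.05. These groups were picked out after the values were seen, over n = 22 arrays.

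**Figure D5:**
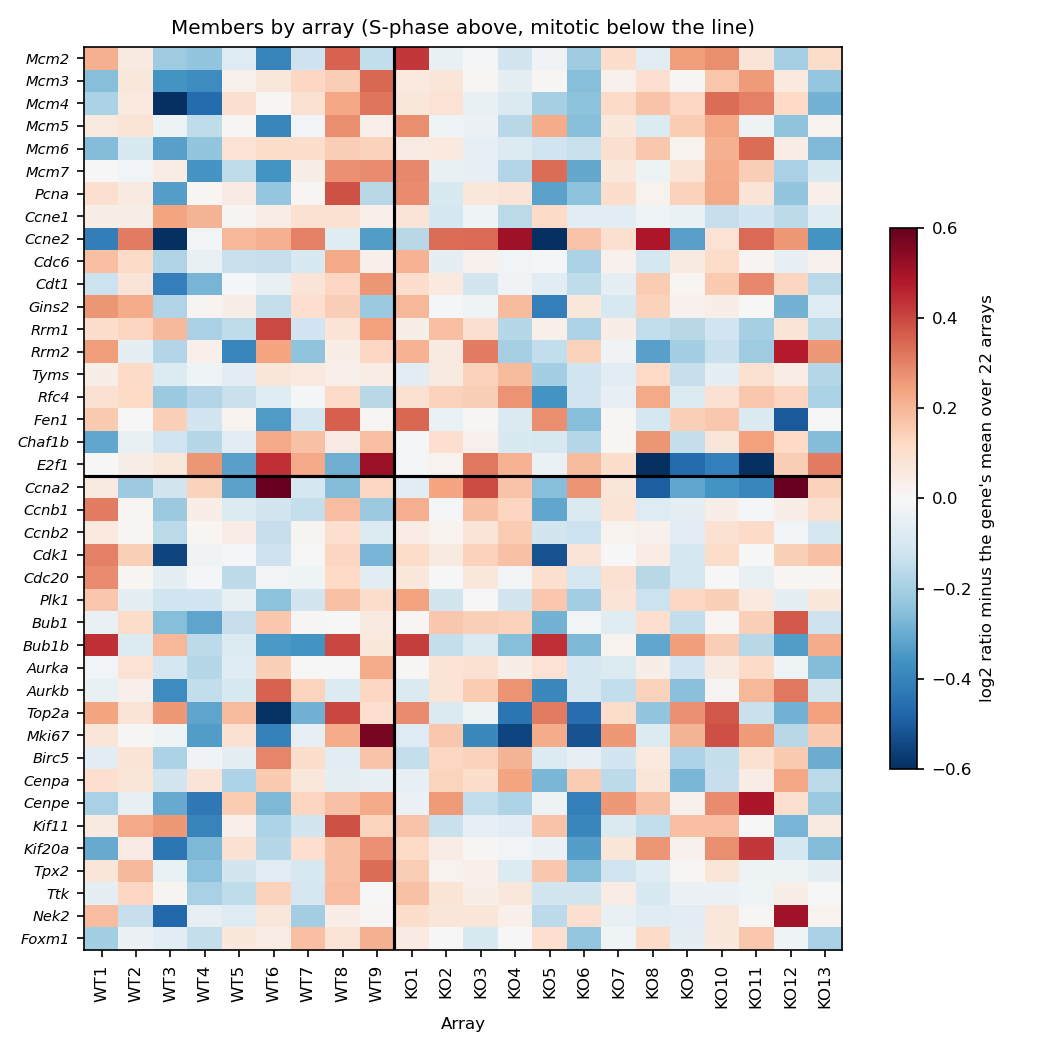
Log2 ratio of each member (rows) in each array (columns) minus the gene's mean over the 22 arrays; red is above and blue below the mean, and the colours end at 0.6 in either direction. Wild type is left and knockout right of the vertical line, S-phase members above and mitotic members below the horizontal line. The low E2f1 and Ccna2 values of knockout 8 to 11 and of wild-type 5 and 8 show as blue cells. For no member do the genotypes separate.

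Of all other named genes tested, 16124, those most like the S-phase mean over the 22 arrays after subtracting genotype means were Hnrnpab (r = 0.83), Aif1l (0.83), Hnrnpd (0.82), Hnrnpll (0.82), Bora (0.81), Hmgn1 (0.81), Prep (0.80) and Cip2a (0.80). Those running most opposite were Zcchc24 (-0.89), Hspb1 (-0.88), Tmem42 (-0.87) and Lgals1 (-0.86). For the mitotic mean those among the nearest were Ticrr (0.85), Mcm8 (0.83), Prep (0.80), Mtrex (0.79), Ska3 (0.79), Mcm10 (0.78) and Mdm1 (0.78). The most opposite were Tnnc2 (-0.93), Gamt (-0.92), Tnni2 (-0.90) and Plac9a (-0.88), of which Tnnc2 and Tnni2 encode troponins of fast muscle.

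The rest of the cycle machinery showed no gene past the threshold either. Of 35 other S-phase genes 16 were lower and 19 higher in the knockout (median 0.00), with Prim2 (-0.17) and Rpa2 (-0.08) among the smallest p-values. Of 40 other mitotic genes 22 were lower and 18 higher (median -0.01). Knl1, a kinetochore scaffold, differed by -0.31 (95% interval -0.58 to -0.04), Smc2, a condensin subunit, by -0.28 (-0.55 to -0.01) and Ckap2 by -0.09, all with a limma adjusted p of 0.918. Of 14 E2F factors and DREAM subunits tested 7 were lower and 7 higher, with E2f2 (-0.13), Lin54 (0.11) and Mybl2 (-0.08) first; Mybl1 was not tested.

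Of 11 G1 cyclins, kinases and Myc genes 5 were lower and 6 higher (median 0.03). Myc, a driver of G1 progression, ran from -2.85 to -2.28 in the wild type (median -2.53) and from -2.89 to -2.49 in the knockout (median -2.78). It differed by -0.23 (95% interval -0.38 to -0.08; limma adjusted p = 0.909), while Ccng2 differed by 0.20 and Cdk2 by 0.22. Among the 10 CDK inhibitors and retinoblastoma proteins, which hold cells out of the cycle, 8 were lower in the knockout with a median of -0.13, and 3 had an unadjusted p under 0.05, beside 53.4% lower and 5.33% under that p among all tested genes. Without wild-type 1 the list's median was -0.07, with 7 of 10 lower. Cdkn1c, the p57 inhibitor of cells that leave the cycle, ran from 5.73 to 6.72 in the wild type (median 6.20) and from 5.34 to 6.56 in the knockout (median 5.92). It differed by -0.28 (95% interval -0.52 to -0.05), Rbl2 by -0.14 (-0.27 to -0.01) and Cdkn2c by -0.17 (-0.33 to -0.02), all with a limma adjusted p of 0.918. None of the 10 passed, and the groups of Cdkn1c and Myc overlapped. With each array centred on its median none of the 10 was lower, at a median of 0.16 where that of all genes was 0.24.

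Among the marker lists none had a gene past the threshold. The median difference was -0.16 for cartilage (10 of 12 lower) and skeletal muscle (12 of 13 lower), -0.12 for surface ectoderm (8 of 10 lower) and -0.03 for endothelium (8 of 10 lower). It was 0.16 for forelimb mesenchyme (4 of 11 lower), 0.09 for nerve (2 of 10), 0.08 for hindlimb (1 of 4), 0.06 for erythroid cells (4 of 11) and 0.04 for macrophages (3 of 10), where 53.4% of all tested genes were lower. Wild-type 1, the array of lowest slope, decides several of these values. Without it the medians were -0.31 for cartilage (12 of 12 lower), -0.21 for muscle (13 of 13), -0.15 for both ectoderm (9 of 10) and endothelium (9 of 10). They were -0.01 for forelimb mesenchyme (6 of 11) and nerve (6 of 10), -0.04 for macrophages (7 of 10), 0.04 for hindlimb (1 of 4) and 0.03 for erythroid cells (4 of 11). In that leave-out 56.4% of all tested genes were lower. Knockout 12 stayed in, with the lowest knockout list means: -0.61 for cartilage, -0.53 for muscle, -0.84 for endothelium and -0.62 for forelimb mesenchyme. These medians thus leave out an outlying array of the wild type only.

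The normalisation bears on the direction of the members. Centring each array on its median, in place of loess, moved the median difference of all genes to 0.24, and the members to 0.37 (S-phase) and 0.33 (mitotic). All 40 were then higher in the knockout; relative to the median of all genes 3 S-phase members and 1 mitotic member were lower. With that centring 27 members had an unadjusted p under 0.05 and none passed the adjusted threshold. In that setting 18.4% of all tested genes were lower in the knockout. The share of all genes under that p was not counted there. The 27 therefore cannot be read as particular to the members. With the slide position as a term 10 of 19 S-phase and 11 of 21 mitotic members were lower, beside 57.8% of all tested genes. The difference then rests on position 2 alone, with 3 arrays of each genotype.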

How the data were processed

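RNA of 22 forelimb samples was read on 22 two-colour Agilent arrays (6 slides, scanned on 1 day), 9 wild type and 13 knockout by their labels. The submitters' processing notes name Agilent Feature Extraction 9.5 as the scanner software, and the file headers give 9.5.3.1. The authors deposited raw spot and background intensities. The deposited value table holds the scanner's log10 ratio of processed Cy5 over Cy3, background-subtracted and dye-normalised per the file headers; it differed by 0 from that ratio on every array, and each column's median was 0. The deposited flags for outliers and background are 0 or 1, and no sample column lacked a sample.

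Mean intensities were corrected with normexp (offset 50) and normalised by loess within arrays, and the spots of a probe were averaged, leaving out control and outlier spots; no spot was saturated. Probes well above background in Cy5 on at least 9 arrays were kept (27782 of 41174). Names came from the design, updated through RefSeq tables of GRCm38.p6 (23374 probes by accession, 6300 unnamed), and the probe of highest mean intensity stood for a gene. The log2 differences were fitted with limma 3.58.1 (lmFit, eBayes) in R 4.3.3 on all 22 arrays without covariates. The p-values were adjusted by Benjamini-Hochberg over all tested genes. The fit was also run on simulated data with independent noise for each gene. That simulation held no slide, position or outlying-array effect, so it does not bear on those. Precision is limited by the number of arrays.

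The members and lists were chosen with earlier results of these data known. All 40 members are named, with full values for 14 key members and for the 3 of each set with the smallest p and the largest difference. Other lists (S-phase, mitotic, G1, CDK inhibitor and E2F genes, and markers of limb mesenchyme, hindlimb, erythroid cells, cartilage, muscle, endothelium, macrophages, ectoderm and nerve) are given by counts, with up to 3 genes of smallest p. A few genes that these rules name are not reported here. Alternatives changed the background correction, normalisation, filter, probe choice, blocks and arrays used.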

Additional observations from a re-analysis of the deposited data

Results flagged for a closer look

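Of 42 sets of 9 wild-type values examined (40 members and the 2 set means), 1 had an array far from the others, where chance gives about 1 in 20. Ccna2, the cyclin that acts in both S phase and mitosis, was at 0.98 on wild-type 6, while the other 8 wild-type arrays lay between -0.02 and 0.44. The same array had 1.24 for E2f1, the second highest wild-type value. Among the knockout arrays, not examined in this way because there are 13, Ccna2 reached 0.92 on knockout 12. The cause was not tested.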

How the results depend on the processing

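Under 20 other settings and with each of the 22 arrays left out in turn, no member passed an adjusted p of 0.05 by limma; the lowest member value was 0.107. Genes past the threshold, 4 in the main setting, numbered 1 with median centring, the scanner log ratio, the deposited table, the slide as a block, the position as a block, and without wild-type 1 and knockout 12 together (chosen after seeing the data). They numbered 0 in the 6 arrays of position 2, 2 without wild-type 1 and knockout 1, and 2 to 6 with 1 array left out. The replicate numbers shared by 9 arrays of each genotype do not pair them: same-numbered arrays lay on different slides and their deviations had correlations of -0.31 to 0.49. With the number as a replicate block 1 gene passed and no member.

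The median differences moved with median centring, to 0.37 for the S-phase and 0.33 for the mitotic set (0.13 and 0.09 above the median of all genes), and stayed within the spread between arrays in the other 19 settings. With 1 array left out they ran from 0.00 to 0.06 and from -0.01 to 0.03. Ccne1 was at 0.19 with median centring, which is -0.05 relative to all genes; its adjusted p ranged from 0.220 to 1.00 over the 20 settings and from 0.316 to 1.00 with 1 array left out. In those leave-outs its difference lay between -0.16 and -0.13. Of the other members, 37 moved by more than their spread under median centring and 7 with the position as a block, where the difference rests on position 2 alone. The cause was not tested.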

Other observations

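The CDK inhibitor and retinoblastoma list ran opposite to the cycle genes from array to array. Its mean had r = -0.55 with the mean of the 40 members over the 22 arrays (rho = -0.70) and r = -0.83 over 20 arrays without wild-type 1 and knockout 12, as a description of arrays that share a reference and a normalisation. The G1 cyclins and kinases had r = 0.25 and the E2F factors and DREAM subunits r = 0.47.

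Probes of one gene did not always read alike. The 16 members with several probes gave 26 pairs, whose r over the 22 arrays, with genotype means subtracted, ran from -0.47 to 0.99. In the 15 pairs with both probes above background on all 22 arrays the median r was 0.83, and in the other 11 it was 0.08. Within those 15, Kif20a (0.99), Ccnb1 (0.82 to 0.97) and E2f1 (0.96) had close pairs, while Cdc6 had r = -0.23, Mcm3 r = 0.14 and the 3 Cenpe probes r = 0.22, 0.35 and 0.44. The 2 Cdc6 probes also gave mean log2 ratios of -0.17 and 1.02 in the wild type, and differences between genotypes of 0.01 and 0.11. Of the 2 members whose probes above background on all arrays differed in sign, Mcm3 gave differences of 0.04 and -0.07 and Cenpe -0.11, 0.05 and 0.10.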
